A study of Homo sapiens with 4 samples.

Results

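The 7 genes ARID2, PBRM1, PHF10, BRD7, BRD9, BICRA and BICRAL encode subunits that place a SWI/SNF chromatin remodeller in its PBAF or its non-canonical BAF (ncBAF) form. They were chosen by name, as the PBAF-specific genes (ARID2, PBRM1, PHF10 and BRD7) and the ncBAF-specific genes (BRD9, BICRA and BICRAL), from the 56809 genes of the deposited table. All 7 passed the filter on low counts, with 373 to 5330 counts per gene and library. Their mRNA was measured in NCI-H929, an established line of human multiple myeloma, a cancer of plasma cells, that here carried the nuclease Cas9. All cells were at passage 2, were transduced, kept in puromycin for 3 days and given doxycycline at 0.5 ug/ml for 24 h. The 2 knockout (KO) libraries come from cells with a doxycycline-inducible construct against BCL7A, and the 2 control libraries from cells that carried a control construct according to the protocol, but are named wild type in the titles and genotype labels. The labels do not say whether the KO cells are a clone or a pool, nor whether replicate libraries trace back to different cultures. The p-values therefore reflect no more than the variation among these 4 libraries, which may be technical.

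SWI/SNF remodellers use the ATPases SMARCA4 or SMARCA2 to slide or evict nucleosomes, and they exist as canonical BAF (cBAF), PBAF and ncBAF, which share a core. Canonical BAF is built on ARID1A or ARID1B with a DPF protein and is known for work at enhancers, PBAF carries ARID2, PBRM1, PHF10 and BRD7 and is known from promoters and transcribed genes, and ncBAF is built around BRD9 with BICRA or BICRAL and is often found at promoters and CTCF sites. BCL7A, the targeted gene, encodes an accessory subunit found in each of these forms, so the comparison asks how the mRNA of the PBAF- and ncBAF-defining subunits stood after its knockout.

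Total counts were 38671744 and 40799624 for the KO pair and 17567202 and 20153596 for the control pair. BCL7A itself was at 1.31 and 1.19 CPM (library-scaled counts, the unit of all levels here) in the KO libraries and at 42.9 and 45.7 CPM in the control libraries, a log2 fold change (KO over control) of -5.15 ± 0.11 (standard error, SE, edgeR adjusted p = 3.51e-25). Most genes differed between the groups: of 17885 tested genes, 76.2% passed an adjusted p of 0.05 in edgeR's quasi-likelihood test, 36.4% higher and 39.8% lower in the KO libraries. In 87.4% of tested genes the CPM of the groups did not overlap, and the median absolute log2 fold change over all of them was 0.66. The summed CPM of 8 plasma cell markers ranged from 11424 to 11430 in the KO and from 6272 to 6330 in the control libraries, with none at 0, while 6 mature B cell markers summed to 30.6 to 33.2 and 123 to 130.1 CPM, with CD22 at 0 in the KO libraries. The t(4;14) pair NSD2 and FGFR3, high in this line, summed to 1399 to 1423 CPM in KO and 1081 to 1108 CPM in control libraries. The 5 epithelial markers summed to 11.99 to 12.6 CPM in the KO libraries, with EPCAM and KRT19 at 0, and to 66.1 to 70.9 CPM in the control libraries, with KRT19 at 0. Markers of T, myeloid and erythroid cells summed to at most 28.3 CPM in any library. These marker sums moved with the groups, as the values of PHF10 and BRD9 do below, and the part of the marker differences in the members' values was not tested. In bulk RNA, fewer cells of a type and less RNA per cell cannot be told apart.

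Among the 7 members, 4 passed the test, 2 higher (BRD9 and ARID2) and 2 lower (PHF10 and BICRAL) in the KO libraries, next to 76.2% of all tested genes. With DESeq2 the calls were 2, PHF10 and BRD9, and with no filter on low counts they were 6. The groups did not overlap in 6 of the 7, next to 87.4% of all tested genes. PHF10 fell 4.61-fold and BRD9 rose 1.39-fold, whereas the other 5 had log2 fold changes from -0.15 to 0.17. The median absolute log2 fold change of the 7 was 0.15.

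Sequence upstream of the RefSeq start is shown for PHF10 and BRD7, the PBAF member that differed most and a PBAF member that did not pass the test. Both come from the RefSeq promoter table (build GRCh38.p14), and the 250 bases before the start are shown. Both genes lie on the minus strand, and the sequences read 5′ to 3′ towards the gene. PHF10 is at chr6:169724501-169724750 and BRD7 at chr16:50368989-50369238. The annotations place the PHF10 start differently: 1 of its 6 GENCODE 29 transcripts starts 1066 bases farther upstream. The stretch lies downstream of that start and upstream of the starts of the other 5. All 7 BRD7 transcripts start downstream of the BRD7 stretch. Capitals mark the GC box, GGGCGG on either strand, the motif that Sp1-type factors bind.
PHF10: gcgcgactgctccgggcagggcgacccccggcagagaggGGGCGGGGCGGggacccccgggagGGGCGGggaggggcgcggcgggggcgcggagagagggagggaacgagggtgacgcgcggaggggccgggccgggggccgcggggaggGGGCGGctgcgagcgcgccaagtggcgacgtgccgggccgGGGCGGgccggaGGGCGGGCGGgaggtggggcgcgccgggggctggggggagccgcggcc
BRD7: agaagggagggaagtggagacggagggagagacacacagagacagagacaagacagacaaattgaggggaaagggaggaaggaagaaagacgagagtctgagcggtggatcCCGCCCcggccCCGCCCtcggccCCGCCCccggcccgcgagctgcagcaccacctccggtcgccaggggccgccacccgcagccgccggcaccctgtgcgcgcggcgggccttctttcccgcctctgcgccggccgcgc

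The PHF10 stretch holds 7 GC boxes, some overlapping, and the BRD7 stretch holds 3. Over the full windows of 300 bases (250 before and 50 after the RefSeq start, whose place for PHF10 differs between annotations), GC content was 85.3% for PHF10, higher than in 99.8% of all 35116 windows in the table, and 73.3% for BRD7. Of the 2 PBRM1 windows, 1 held 6 GC boxes and 82.3% GC, higher than in 98.9% of all windows. The other held 1 GC box and 65.3% GC. PBRM1 did not pass the test (log2 fold change 0.011). A GC box is common, present in 44.95% of all windows. Whether GC boxes go with the changes was not tested. RefSeq windows were matched for 6 of the 7 members, the exception being ARID2. Of the other motifs searched on both strands, the ETS core CCGGAA (17.2% of all windows) was in the BRD9 windows and a BICRA window. Each BRD9 window held 2 matches, but the BRD9 windows overlap and share a match. The E-box CACGTG (7.26%) was in a PBRM1 window, and CCAAT (34.6%) was in a PBRM1 and a BICRAL window. No member window held the ETS-IRF composite element (GGAA, any 2 bases, GAAA; 2.82%), the interferon-response core (GAAA, any 2 bases, GAAA; 3.57%) or the CRE TGACGTCA (1.85%). The windows of PHF10 and BRD7 held the GC box and none of the other motifs. These are letter matches in fixed windows, and binding was not measured.

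PHF10 (BAF45A), the PHD-finger subunit that reads histone tails in PBAF, lies on chromosome 6 at 169703905 to 169725566 (GENCODE 29, GRCh38, minus strand). It was counted 440 and 485 times in the KO libraries and 1111 and 1351 times in the control libraries. Its level was 12.5 and 13.1 CPM in the KO libraries and 57.5 and 60.9 CPM in the control libraries. Both control values stood far above both KO values, without overlap. The log2 fold change was -2.21 ± 0.06 (SE, edgeR adjusted p = 2.78e-22), and 2230 of the 17885 tested genes, 12.5%, had a lower one.

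ARID2 (BAF200), the AT-rich interaction domain subunit around which PBAF assembles, lies on chromosome 12 at 45729665 to 45908040 (plus strand). Its level was 113.6 and 111.8 CPM in the KO libraries and 108.8 and 103 CPM in the control libraries. The KO values were the higher ones by a few CPM, close to the spread of the control pair (SD 4.11 CPM). ARID2 passed the test with a log2 fold change of 0.09 ± 0.04 (SE, edgeR adjusted p = 0.0253), but was called in only 6 of 13 alternative fits. The call was lost with DESeq2 (adjusted p = 0.154), with the stricter filter (adjusted p = 0.396) and with thinned KO counts (adjusted p = 0.584). The value was 0.093 without KO replicate 1, 0.113 without KO replicate 2 and 0.037 without control replicate 2. With upper-quartile scaling, which lowers the median over all tested genes from -0.06 to -0.19, the value turned to -0.04 (adjusted p = 0.305).

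PBRM1 (BAF180), the subunit with a row of bromodomains that bind acetylated histones, lies on chromosome 3 at 52545352 to 52685917 (minus strand). It had the highest level per length of the 7 in both groups. PBRM1 was at 143.2 and 144.3 CPM in KO and at 146.7 and 138.7 CPM in control libraries, and the KO values fell between the control values. Its log2 fold change was 0.011 ± 0.03 (SE, edgeR adjusted p = 0.771). Upper-quartile scaling gave -0.12 (adjusted p = 0.00227) and no filter on low counts gave 0.09 (adjusted p = 0.0113). The value was also below 0, without a call, when control replicate 2 was left out (-0.045), with the stricter filter (-0.047) and with thinned KO counts (-0.063).

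BRD7, the bromodomain subunit that marks PBAF and is a paralog of BRD9, lies on chromosome 16 at 50313487 to 50368934 (minus strand). Its level was 81.8 and 82.9 CPM in KO and 77.5 and 80.2 CPM in control libraries. The values of the groups did not overlap, but the log2 fold change of 0.06 ± 0.04 (SE, edgeR adjusted p = 0.156) missed the threshold, and it turned to -0.07 with upper-quartile scaling. The 4 PBAF-specific genes together summed to 351.1 and 352.1 CPM in KO and to 390.5 and 382.7 CPM in control libraries. The control sum minus the KO sum is smaller than the PHF10 difference alone.

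BRD9, the bromodomain subunit that defines ncBAF, lies on chromosome 5 at 850291 to 892824 (minus strand). Its level was 89.8 and 89.6 CPM in the KO libraries and 60.5 and 68.4 CPM in the control libraries. The KO values lay above both control values, and the control pair was the more spread (SD 5.59 against 0.144 CPM). BRD9 rose with a log2 fold change of 0.47 ± 0.05 (SE, edgeR adjusted p = 1.11e-09). A higher value was found in 4742 of the 17885 tested genes, 26.5%. BRD9 and PHF10 kept their direction and passed the test in each of 13 alternative fits, with ranges of 0.34 to 0.56 and of -2.34 to -2.12.

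BICRA (GLTSCR1), which with its paralog BICRAL (GLTSCR1L) provides the other ncBAF-defining subunit, lies on chromosome 19 at 47608196 to 47703277 (plus strand). It was the ncBAF gene with the lowest level, at 23.9 and 24.5 CPM in KO and 19.3 and 23.6 CPM in control libraries. The control libraries differed from each other by more than the control library nearest to the KO values differed from them. Its log2 fold change of 0.17 ± 0.08 (SE, edgeR adjusted p = 0.0551) missed the threshold, and passed it at 0.31 without control replicate 2 (adjusted p = 0.00161) and at 0.25 with no filter on low counts (adjusted p = 0.00146). Without control replicate 1 it was 0.036 (adjusted p = 0.683), and with upper-quartile scaling also 0.036 (adjusted p = 0.692).

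BICRAL lies on chromosome 6 at 42746958 to 42868560 (plus strand), far from PHF10 on the same chromosome. Its level was 43.6 and 41.0 CPM in KO and 48.0 and 46.1 CPM in control libraries, so that the KO values were the lower ones without overlap. BICRAL fell with a log2 fold change of -0.15 ± 0.05 (SE, edgeR adjusted p = 0.0111) and was lower in KO in all 13 alternatives, of which 9 called it. The call was lost without KO replicate 2 (adjusted p = 0.239), without control replicate 1 (adjusted p = 0.0567), with DESeq2 (adjusted p = 0.118) and when low counts were left unfiltered (adjusted p = 0.309). The 3 ncBAF-specific genes summed to 157.3 and 155.2 CPM in KO and to 127.8 and 138.1 CPM in control libraries.

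**Figure D1:**
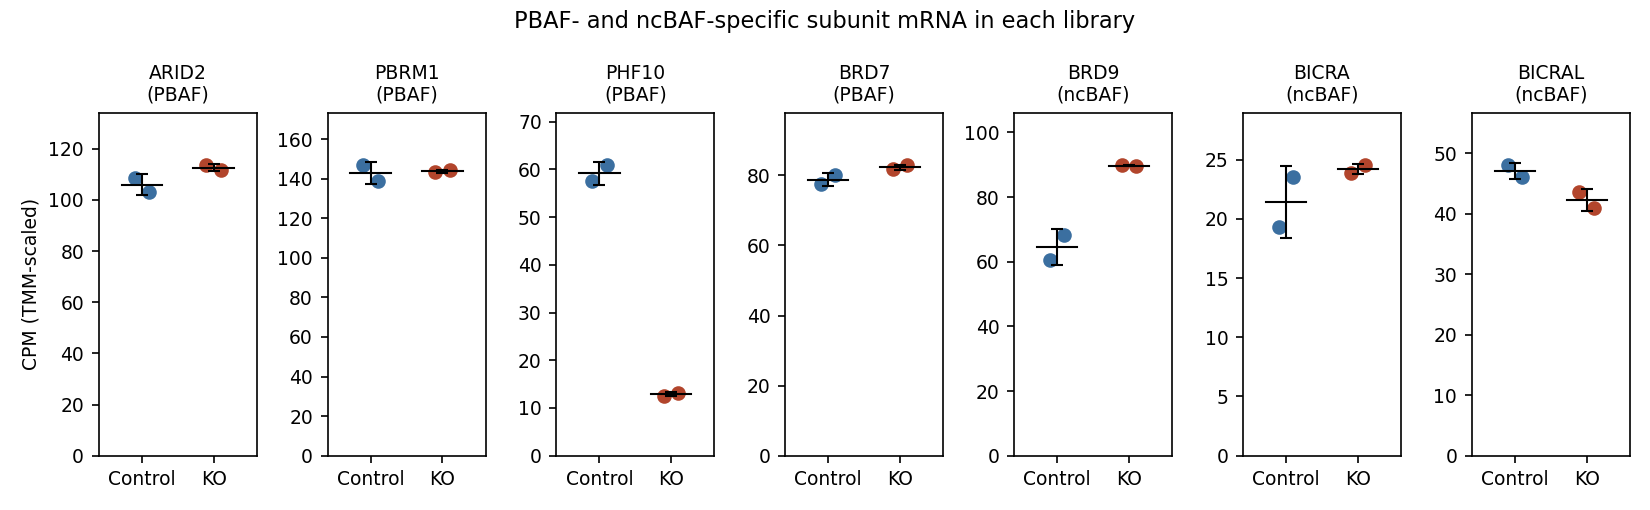
CPM of each member (vertical axis, TMM-scaled, starting at 0 and scaled per gene) in the 2 control and 2 KO libraries (points), with the group mean (line) and SD (bar). PHF10 fell from 57.5 and 60.9 to 12.5 and 13.1 CPM, BRD9 was higher in the KO libraries, and the remaining 5 lay close together in the groups.

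**Figure D2:**
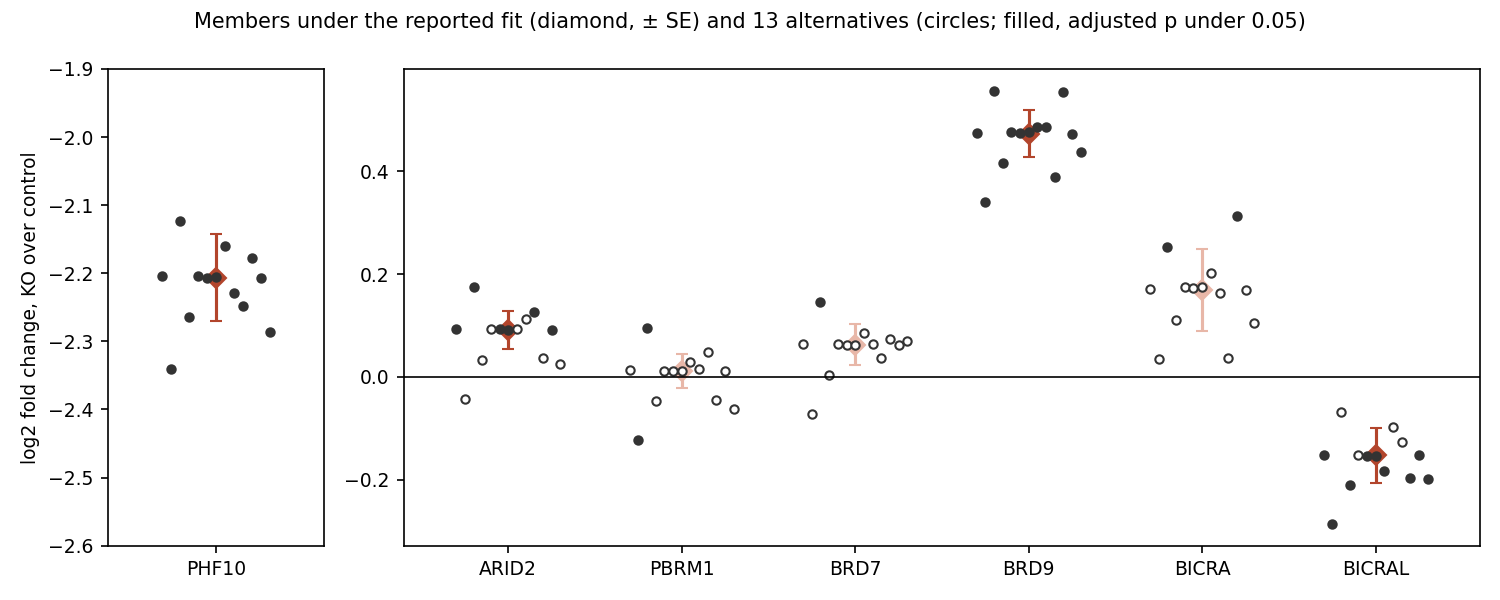
Log2 fold change of each member, KO over control, in the reported fit (diamond, ± SE, pale where the adjusted p was 0.05 or above) and in 13 alternative fits (circles, filled where called), with a separate vertical axis for PHF10. PHF10 stayed between -2.34 and -2.12 and BRD9 between 0.34 and 0.56, while the alternatives of ARID2, PBRM1 and BRD7 lie on both sides of 0.

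Levels of different genes were compared as CPM per kb of annotated exon. In the control libraries the order was PBRM1 at 14.8 ± 0.587 CPM per kb (SD, n = 2), PHF10 at 10.7 ± 0.433, BRD7 at 9.28 ± 0.225, ARID2 at 8.73 ± 0.339, BICRAL at 6.88 ± 0.199, BRD9 at 6.73 ± 0.584 and BICRA at 2.86 ± 0.402. BICRAL and BRD9 did not differ beyond their spread there, and BRD7 and ARID2 lay within the sum of their SDs. In the KO libraries the order was PBRM1 at 14.9 ± 0.0809, BRD7 at 9.70 ± 0.0882, BRD9 at 9.37 ± 0.0150, ARID2 at 9.29 ± 0.103, BICRAL at 6.18 ± 0.265, BICRA at 3.22 ± 0.0592 and PHF10 at 2.32 ± 0.0763 CPM per kb. PHF10 thus went from rank 2 to rank 7, and BRD9 from rank 6 to rank 3, where it did not differ from ARID2 beyond their spread. With the longest transcript as the length, PHF10 stood at rank 3 in the control and again at rank 7 in the KO libraries.

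Subunits that occupy alternative positions were also set against each other within each library, where no scaling factor enters. With 2 libraries per group an exact permutation test cannot go below p = 0.333, so these ratios are given without a test. PHF10 and the DPF genes are BAF45 paralogs, PHF10 marking PBAF and DPF1, DPF2 and DPF3 marking cBAF. PHF10 made up 6.40% and 6.60% of the BAF45 counts in the KO libraries and 25.6% and 27.1% in the control libraries. DPF3 made up 38.6% ± 0.198 in the KO and 13.1% ± 0.164 in the control libraries (SD, n = 2), and DPF2 was the most counted in both groups, at 52.8% and 59.4%. The summed BAF45 level was 197 ± 2.27 CPM in KO against 225 ± 0.512 CPM in control libraries. The ratio of PHF10 to DPF2 counts was 0.121 and 0.126 in the KO and 0.424 and 0.463 in the control libraries, 3.60-fold lower on average. The 95% Clopper-Pearson counting intervals span 0.109 to 0.138 in the KO and 0.395 to 0.494 in the control libraries and lie apart.

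BRD9 and BRD7 occupy ncBAF and PBAF respectively and are not found in the same complex. There were 1.10 and 1.08 BRD9 counts per BRD7 count in the KO libraries and 0.781 and 0.853 in the control libraries. BRD9 was thus the more counted of the pair in the KO libraries and the less counted in the control libraries. Per kb of annotated exon the ratio was 0.967 ± 0.0103 in the KO and 0.725 ± 0.0454 in the control libraries (SD, n = 2), so the crossing of 1 depended on the length used, while the 1.33-fold difference did not. The BICRAL to BICRA ratio was 1.82 and 1.67 in the KO and 2.49 and 1.96 in the control libraries, and the control pair differed by more than the gap between the groups. ARID2 against ARID1A, the PBAF and cBAF scaffolds, stood at 0.346 and 0.330 in the KO and at 0.467 and 0.473 in the control libraries. ARID1A averaged 334 CPM in KO against 225 CPM in control libraries, and ARID2 averaged 112.7 against 105.9 CPM. The PBRM1 to ARID2 ratio within PBAF was 1.26 and 1.29 in the KO and 1.35 in both control libraries, the smallest of the 5 ratio differences.

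**Figure D3:**
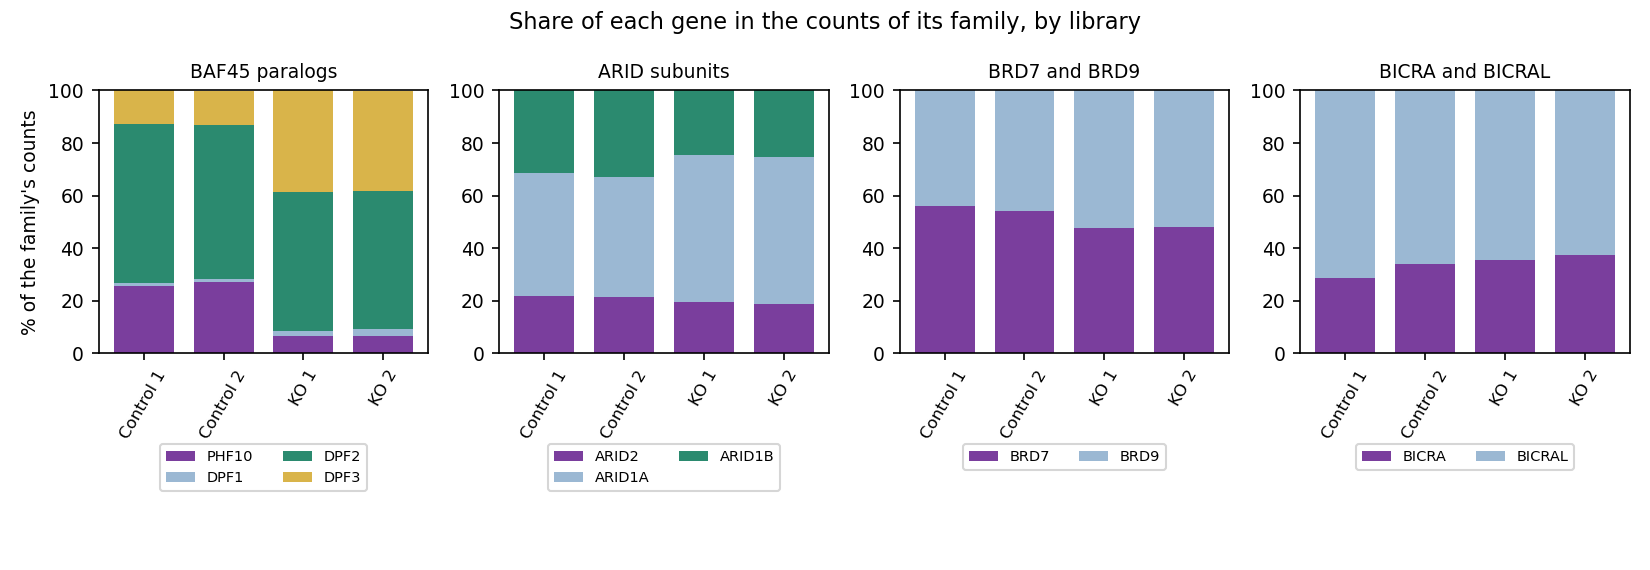
Share of each gene (vertical axis, percent) in the counts of its family, 1 bar per library, for the BAF45 paralogs, the ARID subunits, BRD7 with BRD9 and BICRA with BICRAL. The PHF10 share of the BAF45 counts is 6.40% and 6.60% in the KO and 25.6% and 27.1% in the control libraries.

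The other SWI/SNF subunits were set beside the members in the same fit. All 5 cBAF-specific genes passed the test, 3 higher and 2 lower, with a median log2 fold change of 0.57. Among them DPF3 rose by 1.37 ± 0.05, ARID1A by 0.57 ± 0.03 and DPF1 by 0.74 ± 0.20, and DPF2 fell by 0.36 ± 0.03 (log2, SE). Of the 17 genes listed as shared core and ATPase subunits, 16 were tested and all passed, 6 higher and 10 lower, with a median of -0.25. These counts stand next to 76.2% passing over all tested genes, 36.4% higher and 39.8% lower. The list name does not mean that each of its genes is in every form. Besides BCL7A, SMARCC2 at -0.64 ± 0.03 and SMARCD1 at -0.52 ± 0.04 of that list fell. SMARCD2, a paralog of SMARCD1, rose by 0.57 ± 0.04. SMARCA4, the main ATPase, was named after its value was seen as the gene of that list with the highest log2 fold change. It rose by 0.90 ± 0.04, to 426.3 and 424.7 from 241.6 and 216.3 CPM. Over the 21 other tested SWI/SNF genes, 9 were higher and 12 lower, and their median absolute log2 fold change was 0.46, against 0.15 for the 7 members. ARID1B and SMARCA2 changed sign under at least 1 scaling or filter, and the other 19 kept theirs. Of these calls, 4 did not hold in every alternative. ARID1B was called in 9 of 13, losing its call without KO replicate 1 (adjusted p = 0.557), without KO replicate 2 (adjusted p = 0.0537), with DESeq2 and with no filter. SMARCB1, from the core and ATPase list, was called in 10 of 13, losing its call without KO replicate 2 (adjusted p = 0.0902), with DESeq2 and with no filter. DPF1 went to 0.49 without KO replicate 2 (adjusted p = 0.114), and SMARCA2 to -0.0021 with upper-quartile scaling (adjusted p = 0.952). Whether the members differ from these genes as a group was not tested.

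**Figure D4:**
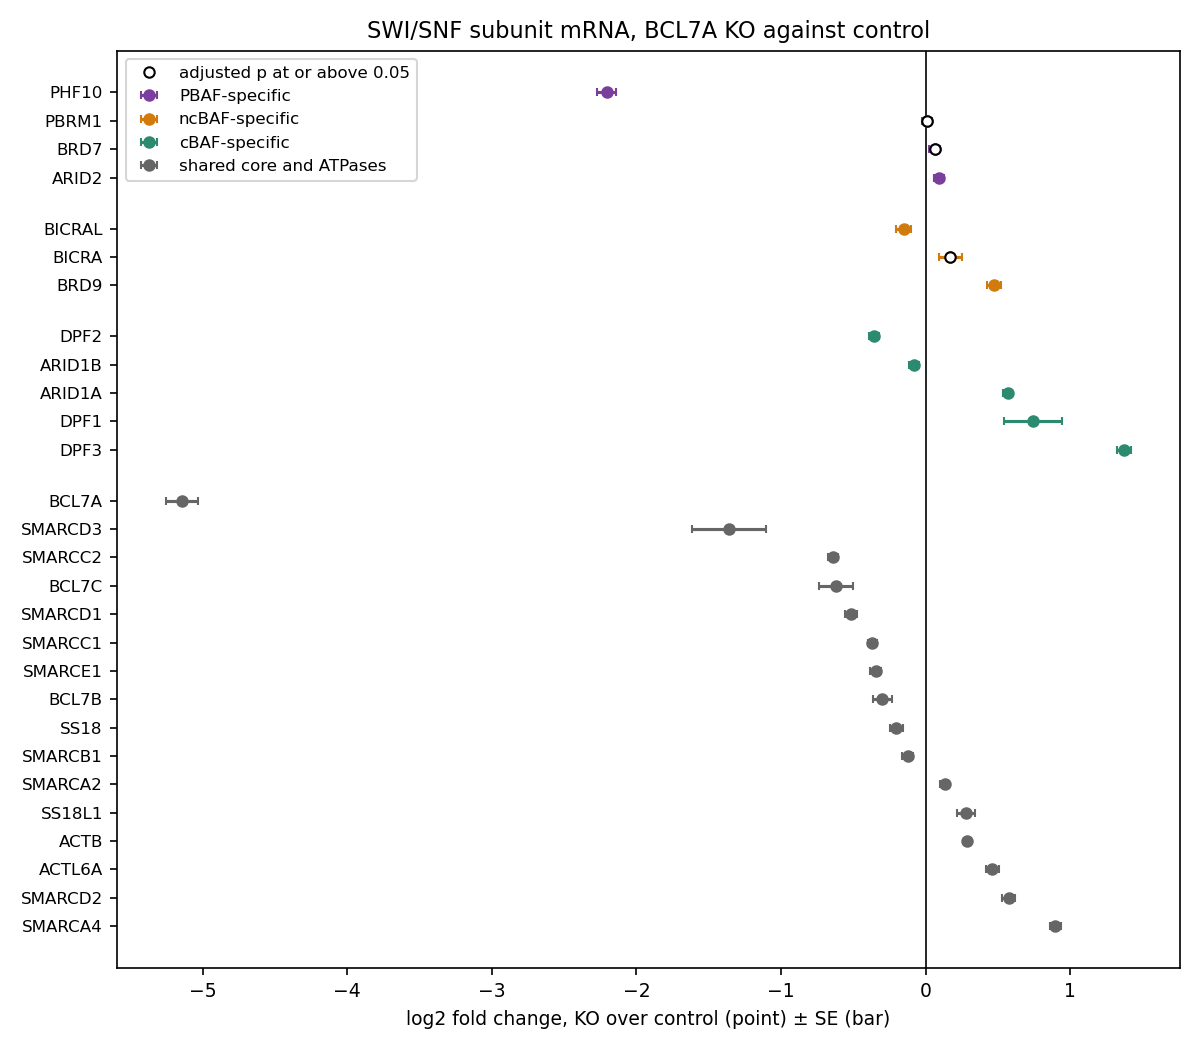
Log2 fold change, KO over control (horizontal axis, point ± SE), of the 7 members and the 21 other tested SWI/SNF genes, coloured by complex and open where the adjusted p was 0.05 or above. PHF10 is the lowest of the 7 members, and in the whole set only BCL7A, at -5.15, is lower.

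Lists of other remodellers and partner families give the same comparison for context. Of 12 ISWI subunits 5 were higher and 5 lower (median -0.09), with BAZ1A at 1.08, POLE3 at 0.77, SMARCA5 at 0.61 and BAZ2B at -2.96. Of 15 NuRD subunits 5 were higher and 6 lower (median 0.02), with RBBP4 at 1.08, MTA1 at -1.44, CHD3 at -2.13 and CHD5 at -2.55. Of 20 INO80, SRCAP and EP400 subunits 11 were higher and 2 lower (median 0.18), with RUVBL2 at 1.11, TRRAP at 0.69, VPS72 at 0.69 and KAT5 at -0.62. Each of these lists held genes in both directions, beside 36.4% higher and 39.8% lower over all tested genes. The INO80, SRCAP and EP400 list leaned to the higher side, as the CTCF and cohesin list below does. Neither lean was tested. Of 27 other bromodomain genes, the domain shared by BRD7, BRD9 and PBRM1, 10 were higher and 13 lower (median -0.11), with BRD8 at 1.24, ATAD2 at 0.74, PHIP at 0.66 and CREBBP at -1.003. Of 11 CTCF and cohesin genes, 8 were higher and 2 lower (median 0.30), with STAG2 at 0.94, RAD21 and WAPL at 0.37 and STAG1 at -0.60. All log2 fold changes named for these lists passed the test, and the medians stand next to -0.06 over all tested genes.

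Each member was next set beside its neighbours on the chromosome, taking up to 10 tested genes on each side. Around PHF10, near the end of the long arm of chromosome 6, 14 of 18 neighbours were lower and 1 higher, with a median log2 fold change of -0.78 against -0.13 over all tested genes of that chromosome. Among the 9 neighbours averaging 5 CPM or more, 7 were lower and 1 higher, with a median of -0.46. PHF10, at -2.21, lay below these medians. The nearest tested gene on each side was C6orf120 at -0.46 ± 0.06 (edgeR adjusted p = 6.39e-08) and TCTE3 at -1.59 ± 0.30 (edgeR adjusted p = 2.29e-05), the latter at a mean of 1.59 CPM. AFDN, an actin-binding adaptor of cell junctions whose start is 1877 kb away, had -2.37 ± 0.05 and was named after its value was seen. The part of this stretch of the chromosome in the PHF10 value was not tested.

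Around BRD9 the median of 20 neighbours was 0.02, with 6 higher and 4 lower, against 0.48 over all tested genes of chromosome 5. BRD9 itself, at 0.47, was above its neighbours but close to that chromosome median. Its nearest tested genes were ZDHHC11 at 0.06, which did not pass the test, and TRIP13 at 0.96. The medians near the remaining members were -0.34 for ARID2, -0.46 for PBRM1, 0.28 for BRD7, -0.38 for BICRA and 0.12 for BICRAL. With 20 genes on each side they were -0.29, -0.30, 0.49, -0.16 and -0.13 in the same order. Over the neighbours averaging 5 CPM or more within 10 genes they were 0.061, 0.057, 0.65, 0.30 and 0.12, and 0.032 for BRD9, so those of ARID2, PBRM1 and BICRA changed sign. The genes next to those members had log2 fold changes of -0.35 (AC008124.1) and 0.06 (SCAF11) at ARID2, -0.08 (SMIM4) and 0.41 (GNL3) at PBRM1, and 0.26 (ADCY7) and 0.35 (NKD1) at BRD7. They were -0.60 (AC010331.1) and -1.85 (EHD2) at BICRA and -0.09 (TBCC) and 0.31 (RPL7L1) at BICRAL. Of these genes, SCAF11, SMIM4, NKD1, AC010331.1 and TBCC did not pass the test, and the others did. EHD2 held only 2 to 8 counts per library. Only PHF10, BRD7 and BICRAL, each below, and ARID2 and BRD9, each above, lay on the same side of these neighbour medians in all 3 versions, while PBRM1 and BICRA changed sides.

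**Figure D5:**
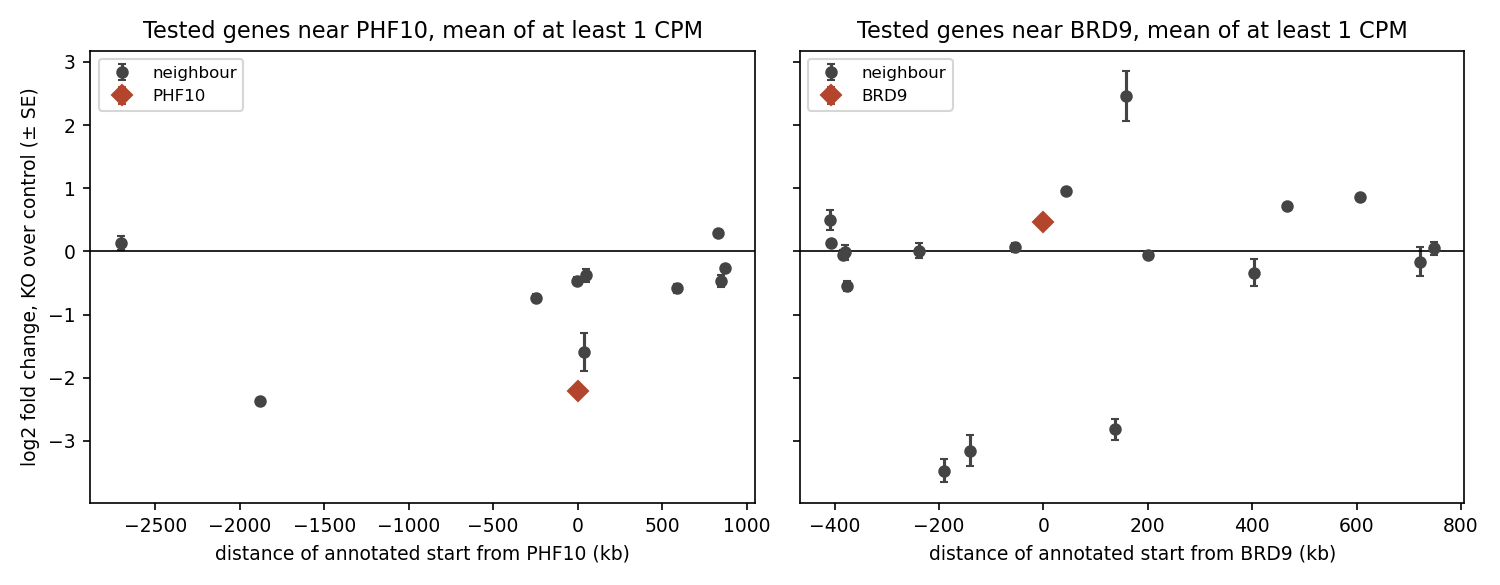
Log2 fold change, KO over control (vertical axis, ± SE), of tested genes averaging 1 CPM or more against the distance of their annotated start from PHF10 or BRD9 (horizontal axis, kb). Most genes near PHF10 lie below 0, with AFDN at -2.37 and PHF10 at -2.21, whereas genes near BRD9 lie on both sides.

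Exons of some neighbours overlap those of members, and the strand setting of the counting is not given in the sources used here. Such counts are uncertain. This touches PHF10 with C6orf120, BRD9 with TRIP13, PBRM1 with SMIM4, BRD7 with ADCY7 and BICRA with AC010331.1 (9 to 15 counts per library), each on the opposite strand, and BRD9 with ZDHHC11 on the same strand. TRIP13 rose by 0.96 ± 0.05, to 62.7 and 64.1 from 33.1 and 32.3 CPM, in the same direction as BRD9, and the part of shared reads in the BRD9 value was not tested. The listed pseudogenes of BRD7 held at most 1 count in a library and those of BRD9 at most 6, and the antisense genes at PHF10 held at most 1.

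Finally, the gene with the most similar profile to each member was sought among 9088 protein-coding genes averaging 10 CPM or more, by Euclidean distance over the 4 libraries in centred log2(CPM + 0.5). For PHF10 it was AL157935.2, at a distance of 0.0646, with 12.4 and 13.7 CPM in KO and 59.5 and 60.4 CPM in control libraries, and only 7 genes lay within 0.1. BRD9 was nearest to CBR1, a carbonyl reductase (0.0152), with 215 genes within 0.1. ARID2, PBRM1 and BRD7, which hardly differed between groups, had 528, 521 and 614 genes within that distance, the nearest being EXOSC7, an RNA exosome subunit (0.0138), DCP1A, an mRNA decapping factor (0.0109), and AQP3, a water channel (0.0130). BICRA was nearest to STK19 (0.0299), with 46 genes within 0.1, fewer than BRD9 although BICRA did not pass the test. BICRAL was nearest to GNPAT (0.0144), with 292 genes within 0.1. With 4 libraries such likeness describes a profile over 2 groups and little more.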

How the data were processed

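The members, comparison lists and alternatives were chosen with earlier results of these data known. Per the labels, poly(A) RNA of NCI-H929 cells was made into stranded libraries. The authors deposited a table of estimated counts, one value per gene and library. The submitters' processing notes name Salmon 0.12 and GRCh38. Every value was whole and entered the tests unchanged. The 92 ERCC spike-in rows were left out. All 56809 gene names match GENCODE 29, which gave positions and lengths, while the annotation used for counting is not given in the sources used here.

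Genes were filtered with filterByExpr (17885 kept), scaled with TMM and tested in R 4.3.3 by the robust quasi-likelihood test of edgeR 4.0.16 (estimateDisp, glmQLFit, glmQLFTest; no covariates), with Benjamini-Hochberg adjustment over all tested genes and a threshold of 0.05. The fit was tested on simulated data in which few genes changed, in both directions. Most genes differed here, so that simulation does not test the scaling of these data. Log2 fold changes are KO over control, and SE is the absolute value over the square root of F. "Rose" stands for higher in KO and "fell" for lower. Counting intervals cover counting error only. The KO libraries held 38671744 and 40799624 counts and the control libraries 17567202 and 20153596, so the control libraries set the precision.

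Named genes were the members, BCL7A, up to 4 tested genes of each list by smallest p, the nearest tested gene on each side, overlapping genes and pseudogenes, and the 1 most similar gene per member. Alternatives were DESeq2 1.42.0, limma-voom (limma 3.58.1), upper-quartile and RLE factors, no filter, a stricter filter (mean count of 10 with 1 CPM in 2 libraries), a replicate block, each library left out, thinned KO counts and no robust shrinkage.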

Additional observations from a re-analysis of the deposited data

How the results depend on the processing

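PHF10 and BRD9 kept direction and call in all 13 alternatives. The count of members called, 4 in the reported fit, was 2 with DESeq2 and 6 with no filter. It was 3 with the stricter filter and with thinned KO counts. Upper-quartile factors also gave 4, but 1 higher and 3 lower, against 2 higher and 2 lower in the reported fit. With upper-quartile factors ARID2 was at -0.042, PBRM1 at -0.12 and BRD7 at -0.071. With no filter PBRM1 was at 0.095, BRD7 at 0.15 and BICRA at 0.25, all called, and BICRAL at -0.069, no longer called. The stricter filter gave ARID2 0.034 and PBRM1 -0.047, thinned KO counts gave ARID2 0.025 and PBRM1 -0.063, and DESeq2 gave ARID2 0.092 and BICRAL -0.15, neither called. Against the reported fit, every member was lower with upper-quartile factors and with the stricter filter, and higher with no filter. In each of these settings the members moved by nearly equal amounts. The cause of these and the other differences was not tested.

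Leaving out each library gave 12363 to 13102 genes called and log2 fold changes of 0.037 to 0.13 for ARID2, -0.045 to 0.048 for PBRM1, 0.036 to 0.31 for BICRA and -0.20 to -0.10 for BICRAL. In these fits a lone library is assumed to vary like the pair of the other group. With the longest transcript as length, the rank per kb in the control libraries was 2 for BRD7, 3 for PHF10, 4 for BRD9, 5 for ARID2 and 6 for BICRAL, and in the KO libraries 2 for BRD9 and 3 for BRD7. Same-numbered libraries deviated from their group means with a correlation of -0.198 across genes. With 2 libraries per group this cannot decide whether the numbers pair the libraries, which the labels do not say. The replicate block called 13287 genes and the same number of members, 4. Crossing the numbers, an alternative added after seeing the data, called 13359 genes and 4 members. Genes called ranged from 11685 (DESeq2) to 14837 (no filter). The control libraries, at 373 counts for BICRA at the least, limit small differences.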
